A study of Mus musculus with 6 samples.

Results

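The 36 genes described here encode subunits of integrins, the transmembrane receptors by which cells hold on to the matrix and to each other, and of laminins, the cross-shaped proteins that build the basement membrane. They were chosen by name, as 18 integrin alpha, 8 integrin beta and 10 laminin genes, with earlier results of these data known. The RNA-Seq files held a count for 23231 genes. The cells were of the mouse myoblast line C2C12, which forms myotubes in medium of low serum. All had received lentivirus (multiplicity of infection 100), puromycin (2 μg/ml) and then medium with 2% horse serum, and RNA was taken on day 5 of differentiation. The 3 control libraries came from dCas9-KRAB cells, which express the nuclease-dead Cas9 fused to the KRAB repressor domain without an enhancer sgRNA. The 3 other libraries came from dCas9-KRAB-En5 cells, which carry the same protein with sgRNAs against En5, an enhancer of *Myog*. The cells were puromycin-resistant populations. Whether the replicates were separate transductions or cultures is not stated in the labels, so the p-values measure the spread between these libraries.

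An integrin is a pair of one alpha and one beta subunit, and the pair decides the ligand. Skeletal muscle fibres are known for the pair of *Itga7* and *Itgb1*, a laminin receptor at the muscle cell surface and the myotendinous junction, whose main ligand is the laminin that contains the *Lama2* chain. Leukocytes are known for pairs of *Itgb2* with *Itgal*, *Itgam*, *Itgax* or *Itgad*, which bind ICAM proteins and complement, and for *Itgb7*, which pairs with *Itga4* or *Itgae*. A laminin is a trimer of one alpha, one beta and one gamma chain, so the level of each chain bears on which trimers can form.

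The libraries held between 31831093 and 73988425 counts. *Myog*, whose enhancer was targeted, was counted 43211, 68488 and 74845 times in the dCas9-KRAB libraries and 12, 0 and 0 times in the dCas9-KRAB-En5 libraries (replicates 1, 2 and 3 in this order, here and in what follows). The 10 myotube markers summed to between 14360 and 17380 TPM (gene counts per exonic length, made to sum to a fixed total per library) in dCas9-KRAB and to between 11.4 and 19.8 TPM in dCas9-KRAB-En5, and the 6 myoblast markers to between 64.7 and 206 and between 0.311 and 1.63 TPM. The 20 macrophage markers summed to between 7984 and 9701 TPM in dCas9-KRAB and between 14480 and 22460 TPM in dCas9-KRAB-En5, of which *Lyz2* alone gave 1896 to 4815 and 6938 to 13210 TPM, while the median of the list lay between 79.3 and 98.4 TPM and between 34.8 and 118.9 TPM, and overlapped. Of these markers 13, including *Csf1r*, *Tyrobp* and *Spi1*, reached at least 10 TPM in every library, while *C1qa*, *C1qb*, *C1qc* and *Mertk* stayed under 1 TPM. Such genes are not known for expression in a myoblast line, so the libraries of both groups go against the labelled cell type in this respect, and in bulk RNA fewer cells of a type and less RNA per cell cannot be told apart. The summed levels of the 10 lymphocyte markers did not exceed 7.94 TPM in any library, with *Cd3e*, *Cd3g*, *Cd8a* and *Ms4a1* among those at 0 in all, and those of the 7 neutrophil, 6 dendritic cell, 5 platelet and 5 endothelial markers did not exceed 12.5, 11.01, 2.23 and 0.576 TPM. The 5 epithelial markers were at 0 everywhere, and the 6 fibroblast markers summed to between 59.8 and 153 TPM in dCas9-KRAB and between 15.1 and 34.5 TPM in dCas9-KRAB-En5. dCas9-KRAB-En5 replicate 3 stood apart: it listed 13991 genes against 17084 to 19395 in the other libraries, 20.8% of its counts came from ribosomal protein genes against 9.25% to 16.8%, and its long genes (at least 6000 exonic bases) lay a median of 1.29 below the other libraries of its group on the log2(TPM + 1) scale. The members have long transcripts, with a median of 6814 exonic bases against 3909 over the genes tested, so their values are given with and without this library where it decides a call.

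Of the 36 members, 33 had a count in at least 1 library, and 27 passed the filter on low counts and were tested with edgeR's quasi-likelihood test. A call needed an adjusted p no higher than 0.01 and a log2 fold change of 1 or more in size. By this rule 2 members fell in dCas9-KRAB-En5 cells, the laminin chain *Lama2* and the integrin *Itgb6*, against a background of 4.67% of all genes tested. There were 3 members that rose, *Itgb7*, *Lama4* and *Lamc1*, against a background of 1.52%. *Itgb6* passed the filter through the dCas9-KRAB libraries alone, so a difference was bound to appear in it. *Lama2* was over the cutoff of this filter in 3 dCas9-KRAB libraries and 1 dCas9-KRAB-En5 library. It too owed its place in the test to the dCas9-KRAB libraries, so both lower calls are a description. The median log2 fold change was 0.86 over the 19 integrins tested, -1.56 over the 8 laminins and 0.16 over all 27, against 0.07 over all 14378 genes tested. With the replicate number as a block, 3 members were lower, against a background of 6.79%, and 6 were higher, against 3.94%: *Itga7* and *Lama5* joined the lower calls and *Itgb6* left them, and *Itga4*, *Itgam* and *Itgb4* joined the higher calls. DESeq2 called 4 members lower (background 8.66%) and 8 higher (background 5.88%), including each of the 5 that edgeR called. The edgeR counts moved with single libraries, and so did those of all genes. Without dCas9-KRAB-En5 replicate 3, 4 members were called lower and 7 higher, where 14.0% and 11.7% of all genes tested were called. Without dCas9-KRAB replicate 1 no member was called in either direction (1.43% of all genes lower and 0.0397% higher), without dCas9-KRAB replicate 2 none lower and 1 higher (2.02% and 0.133%), and without dCas9-KRAB replicate 3 1 lower and none higher (2.47% and 0.152%). Without dCas9-KRAB-En5 replicate 1 there were 1 lower and 3 higher calls (3.26% and 0.847%), and without dCas9-KRAB-En5 replicate 2 none lower and 2 higher (2.70% and 0.779%). An offset for gene length in each library, an alternative chosen after seeing the data, lowered the fold changes of 5 members by over 1.5 times in unlogged value. Their log2 fold changes came to 0.37 for *Itga6*, 1.39 for *Itgav*, 1.17 for *Itga4*, 2.65 for *Lama4* and 2.61 for *Lamc1*. With this offset *Lama4* and *Lamc1* were still called in edgeR (adjusted p = 0.00524 and 0.00785), and the call of *Lama2* was lost (log2 fold change -5.40, adjusted p = 0.0156). The TPM of the groups did not overlap in 12 members tested, 7 lower and 5 higher in dCas9-KRAB-En5 cells, or 25.9% and 18.5% of the members against 19.7% and 7.76% of all genes tested. The 7 lower members include *Itgb6* and *Lama2*, which owed their place in the test to the dCas9-KRAB libraries. Their lack of overlap is a description, and so is the lower share that counts them.

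**Figure D1:**
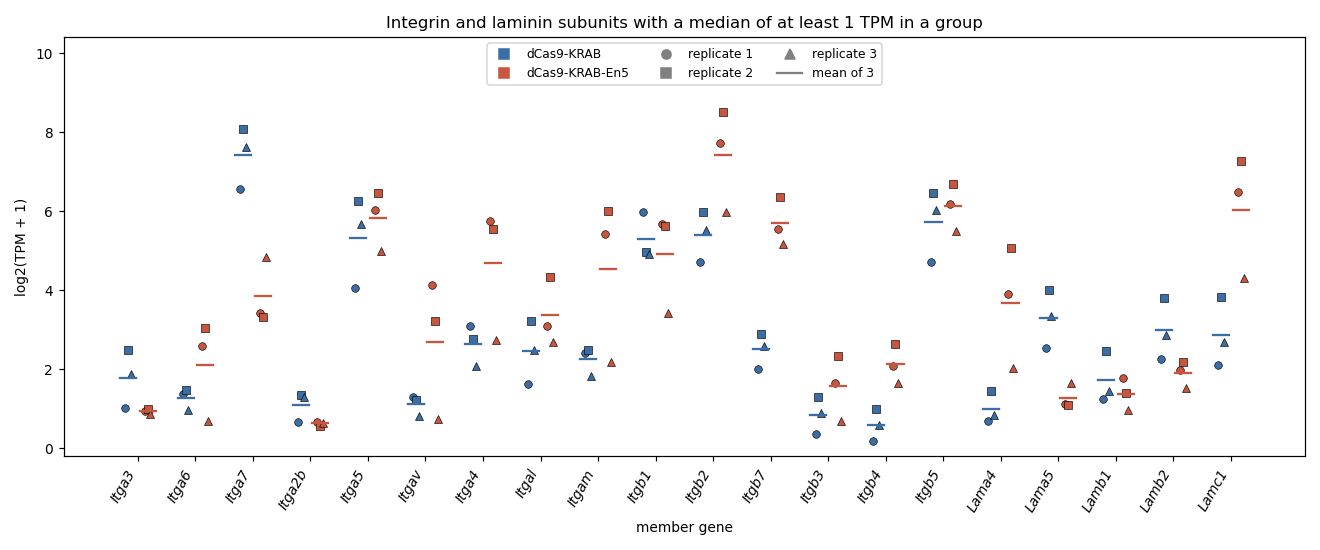
Level of the 20 members with a median of at least 1 TPM in a group, as log2(TPM + 1) on the vertical axis and by gene on the horizontal axis; each point is a library (blue dCas9-KRAB, red dCas9-KRAB-En5, shape by replicate) and each line the mean of 3. *Itga7* is the highest member in every dCas9-KRAB library and *Itgb2* in every dCas9-KRAB-En5 library, and the red triangles of dCas9-KRAB-En5 replicate 3 lie apart from the other red points in *Itgav*, *Itga4*, *Itgam* and *Lamc1*.

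**Figure D2:**
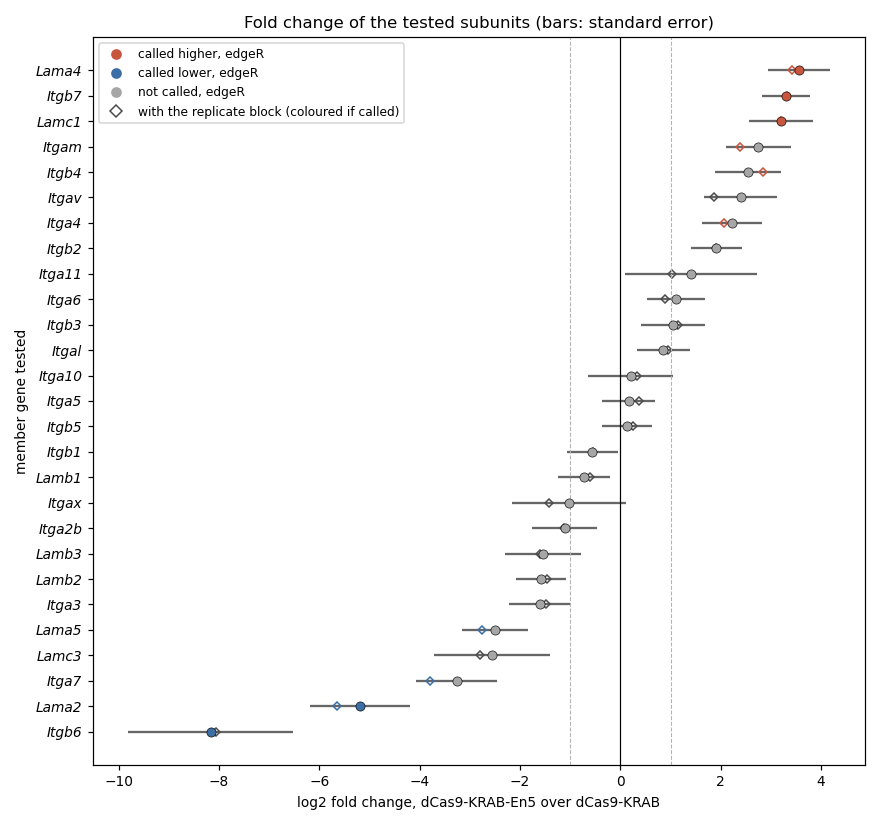
Log2 fold change of dCas9-KRAB-En5 over dCas9-KRAB for the 27 members tested, with the standard error as bars and dashed lines at 1 and -1; circles are the edgeR fit without a block and diamonds the fit with it, coloured where called. *Lama4*, *Itgb7* and *Lamc1* are called higher and *Lama2* and *Itgb6* lower; the value of *Itgb6* depends on the prior count, since it had no count in dCas9-KRAB-En5.

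Promoter sequences of 5 members are shown to let the start regions of genes with opposite changes be compared, *Lama2* and *Lama5* being called lower in dCas9-KRAB-En5 cells with the replicate block and *Itgb7*, *Itga4* and *Itgam* higher. The promoter windows used held none for *Itga7*, called lower in the same fit, or for *Itgb4*, *Lama4* and *Lamc1*, called higher in it. They were read from RefSeq windows on GRCm38.p6, up to 250 bases before the start site and printed without annotated exons, on the strand of the gene and 5′ to 3′. Capitals mark 3 hexamers read on both strands. CAGCTG is a palindromic form of the E-box bound by myogenic factors, whose general form is CANNTG. The form CACCTG, which reads as CAGGTG on the opposite strand, is also an E-box. GAGGAA, which reads as TTCCTC on the opposite strand, is the core bound by ETS factors of the PU.1 type.
*Lama2* (chr10:27616943-27617192, minus strand): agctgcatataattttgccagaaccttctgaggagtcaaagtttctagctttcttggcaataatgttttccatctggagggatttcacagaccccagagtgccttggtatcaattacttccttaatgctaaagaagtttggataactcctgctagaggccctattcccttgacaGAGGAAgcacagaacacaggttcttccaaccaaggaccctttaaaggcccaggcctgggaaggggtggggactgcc
*Lama5* (chr2:180225860-180226109, minus strand): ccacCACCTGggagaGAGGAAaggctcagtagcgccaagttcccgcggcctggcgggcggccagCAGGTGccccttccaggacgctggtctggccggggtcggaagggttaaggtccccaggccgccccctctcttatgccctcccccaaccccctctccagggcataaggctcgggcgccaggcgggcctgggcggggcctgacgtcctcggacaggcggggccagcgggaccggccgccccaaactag
*Itgb7* (chr15:102231945-102232185, minus strand): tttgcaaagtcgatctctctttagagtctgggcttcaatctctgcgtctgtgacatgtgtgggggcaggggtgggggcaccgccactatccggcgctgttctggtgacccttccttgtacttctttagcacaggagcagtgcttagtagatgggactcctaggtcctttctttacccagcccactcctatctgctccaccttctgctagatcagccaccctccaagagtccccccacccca
*Itga4* (chr2:79255176-79255425, plus strand): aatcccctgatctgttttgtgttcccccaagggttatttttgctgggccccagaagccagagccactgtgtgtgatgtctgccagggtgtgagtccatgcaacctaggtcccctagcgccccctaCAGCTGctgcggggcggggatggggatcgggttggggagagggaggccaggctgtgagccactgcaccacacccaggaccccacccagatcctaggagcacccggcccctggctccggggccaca
*Itgam* (chr7:128062390-128062639, plus strand): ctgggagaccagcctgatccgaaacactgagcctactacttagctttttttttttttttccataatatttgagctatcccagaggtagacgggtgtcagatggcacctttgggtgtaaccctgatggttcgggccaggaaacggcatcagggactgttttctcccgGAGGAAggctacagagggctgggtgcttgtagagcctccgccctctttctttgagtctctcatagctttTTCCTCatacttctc
The *Lama5* window held CACCTG on each strand and GAGGAA once, the *Itga4* window held CAGCTG once, the *Itgam* window GAGGAA on each strand and the *Lama2* window GAGGAA once, while none of the 3 was in the *Itgb7* window. The start site behind the *Lama2* window lies inside the gene as GENCODE annotates it. The shares that hold a hexamer were counted over the whole 250 bases before each start site, annotated exons included, for members and for all genes alike. Of the 26 such windows of the 23 members that RefSeq lists, the general E-box was in 80.8%, against 66.2% of all 32851 windows. The palindromic form was in 23.1% against 13.0%, the form read as CACCTG in 30.8% against 17.2%, and the ETS core in 50.0% against 23.3%. In the exon-free stretches of these windows, which run from 0 to 250 bases, the general E-box was in 17 of the 26, the palindromic form in 4, the form read as CACCTG in 5 and the ETS core in 11, and no share over all genes was counted for stretches of such lengths. The general form includes the windows of both its special forms, and a match is a description of the letters only.

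Among the laminin-binding alpha subunits, *Itga7* had the largest difference in level. *Itga7* (ENSMUSG00000025348, chromosome 10 of GRCm38, 128933818 to 128958282, plus strand) measured 93.3, 271 and 195 TPM in dCas9-KRAB replicates 1 to 3 and 9.75, 9.01 and 27.7 TPM in dCas9-KRAB-En5 replicates 1 to 3. Every dCas9-KRAB-En5 library was below every dCas9-KRAB library, and the means were 187 ± 89.1 and 15.5 ± 10.6 TPM (SD, n = 3). The log2 fold change was -3.26 (standard error, SE, 0.81), a 9.57-fold lower level, and its edgeR p of 0.0192 after adjustment missed the threshold of 0.01. With the replicate block the adjusted p was 6.89e-04 in the same test (log2 fold change -3.80), and without dCas9-KRAB-En5 replicate 3 it was 1.13e-04 (log2 fold change -4.90). With any other library left out *Itga7* was not called, with adjusted p-values up to 0.0664 (edgeR). Nor was it called with the gene length offset (adjusted p = 0.0508, edgeR). *Itga7* counts remained in dCas9-KRAB-En5 cells, at 1671, 1236 and 5122 per library, where *Myog* had at most 12. *Itga3*, whose product pairs with *Itgb1* as a laminin receptor of many tissues, also had groups that did not overlap, at 1.01, 4.61 and 2.67 TPM against 0.909, 0.992 and 0.834 TPM, and its log2 fold change of -1.61 (SE 0.61) did not pass the test (adjusted p = 0.0913, edgeR). *Itga6*, which pairs with *Itgb1* or *Itgb4*, had 1.61, 1.79 and 0.962 TPM against 4.98, 7.21 and 0.621 TPM. Its dCas9-KRAB-En5 libraries lay on both sides of the controls, with replicate 3 the lowest of all 6, and its log2 fold change of 1.11 (SE 0.57) did not pass (adjusted p = 0.205, edgeR).

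The collagen-binding alpha subunits were hardly detected in either group. *Itga1* had no count in any library, and *Itga2* had none in dCas9-KRAB and 5, 4 and 8 counts in dCas9-KRAB-En5, close to the floor of 3 counts, which is worth 0.0405 to 0.0942 CPM (counts per fixed library total) and covers counting error only. *Itga10* and *Itga11*, a cartilage and a fibroblast collagen receptor, stayed at or under 0.346 and 0.423 TPM and did not pass the test (adjusted p = 0.893 and 0.488, edgeR). Exons of the same-strand gene model *Gm42957* cover 33.5% of the exonic bases of *Itga10*. If reads that touch both were left out, the level of *Itga10* is understated in every library.

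Among the subunits that bind the RGD motif of fibronectin and vitronectin, the fibronectin receptor subunit *Itga5* was the most abundant and did not differ beyond the spread of the libraries. It had 15.7, 75.1 and 49.8 TPM in dCas9-KRAB and 64.2, 87.1 and 31.1 TPM in dCas9-KRAB-En5, with a log2 fold change of 0.16 (SE 0.53, adjusted p = 0.86, edgeR), and the sign turned without dCas9-KRAB replicate 1. *Itgav*, the alpha subunit of the vitronectin receptors, had 1.45, 1.35 and 0.752 TPM in dCas9-KRAB against 16.6, 8.28 and 0.663 TPM. Its first 2 dCas9-KRAB-En5 libraries were above every control and replicate 3 was below every control. The log2 fold change of 2.40 (SE 0.72) did not pass (adjusted p = 0.0413, edgeR). Without dCas9-KRAB-En5 replicate 3 the adjusted p was 0.00109, but no call was made with any other library left out (up to 0.204, edgeR). The gene length offset gave no call either (adjusted p = 0.0883, edgeR). *Itga2b*, the platelet fibrinogen receptor subunit, had 0.574, 1.55 and 1.48 TPM against 0.597, 0.487 and 0.569 TPM, with overlapping groups (adjusted p = 0.26, edgeR), and *Itga8* had no count.

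*Itga4* binds VCAM1 and fibronectin and occurs on leukocytes and on early muscle cells. It had 7.60, 5.76 and 3.21 TPM in dCas9-KRAB and 53.3, 45.7 and 5.68 TPM in dCas9-KRAB-En5, so that dCas9-KRAB-En5 replicate 3 fell among the controls. The log2 fold change was 2.23 (SE 0.60, adjusted p = 0.0265, edgeR), called with the replicate block (2.07, adjusted p = 0.00591) and without dCas9-KRAB-En5 replicate 3 (2.55, adjusted p = 0.00109). *Itga4* was not called with any other library left out (adjusted p up to 0.162, edgeR) or with the gene length offset (adjusted p = 0.0806, edgeR). An 8.04% stretch of its exons lies opposite exons of *Cerkl* on the other strand, whose own count was at most 34 in any library. *Itga9*, its nearest relative, had no count.

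Of the 5 leukocyte alpha subunits, *Itgal* and *Itgam* carried nearly all of the signal, and none passed edgeR's thresholds. *Itgam*, the alpha chain of the complement receptor of macrophages and neutrophils (ENSMUSG00000030786, chromosome 7, 128062640 to 128118491, plus strand), had 4.35, 4.64 and 2.57 TPM in dCas9-KRAB and 42.0, 63.3 and 3.58 TPM in dCas9-KRAB-En5. The first 2 dCas9-KRAB-En5 libraries were far above the controls and replicate 3 lay within them. Its log2 fold change was 2.75 (SE 0.65, adjusted p = 0.0151, edgeR), and it was called with the replicate block (2.39, adjusted p = 0.00499) and without dCas9-KRAB-En5 replicate 3 (3.14, adjusted p = 2.38e-04). No call of *Itgam* was made with any other library left out (adjusted p up to 0.083, edgeR) or with the gene length offset (adjusted p = 0.0126, edgeR). Exons of the same-strand gene model *Gm49368* cover 68.7% of the exonic bases of *Itgam*, and this model had at most 6 counts. If reads that touch both were left out, which is the default of featureCounts, the level of *Itgam* is understated in every library. *Itgal*, the alpha chain of the lymphocyte function antigen that binds ICAMs, had 2.11, 8.37 and 4.65 TPM against 7.58, 19.2 and 5.41 TPM, with overlapping groups and a log2 fold change of 0.86 (SE 0.52, adjusted p = 0.278, edgeR). *Itgax*, a dendritic cell and macrophage chain, did not exceed 0.262 TPM (adjusted p = 0.563, edgeR), *Itgad* had 8 counts in dCas9-KRAB replicate 1 and none elsewhere, and *Itgae* had at most 10 counts. *Itgad* and *Itgax* are near-identical over parts of their length, 8.02% of the 50-base words of *Itgax* transcripts being shared, so these few counts are uncertain. Over the 18 alpha genes no call was made by edgeR, with 5 of the 12 tested at an unadjusted p under 0.05, while DESeq2 called 1 lower and 3 higher.

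The leukocyte beta subunits were higher in every dCas9-KRAB-En5 library than in every control. *Itgb7* (ENSMUSG00000001281, chromosome 15, 102215995 to 102231944, minus strand) had 3.05, 6.48 and 5.04 TPM in dCas9-KRAB and 46.0, 80.7 and 34.9 TPM in dCas9-KRAB-En5, or 4.86 ± 1.73 against 53.9 ± 23.9 TPM (SD, n = 3). It rose 9.85-fold, with a log2 fold change of 3.30 (SE 0.47, adjusted p = 9.66e-04, edgeR), between 3.03 and 3.50 when each library was left out. The call was lost without dCas9-KRAB replicate 1 or 3, with adjusted p-values up to 0.0127. *Itgb2* (ENSMUSG00000000290, chromosome 10, 77530252 to 77565708, plus strand), the beta chain shared by *Itgal*, *Itgam*, *Itgax* and *Itgad*, was already well expressed in the controls, at 25.3, 61.8 and 44.8 TPM, and had 211, 362 and 62.6 TPM in dCas9-KRAB-En5. The lowest dCas9-KRAB-En5 library lay just above the highest control. The log2 fold change of 1.91 (SE 0.51) did not pass the test (adjusted p = 0.0259, edgeR), nor with the replicate block (adjusted p = 0.0117). Without dCas9-KRAB-En5 replicate 3 the adjusted p was 0.00243, but *Itgb2* was not called with any other library left out (up to 0.138, edgeR). It also missed the threshold with the gene length offset (adjusted p = 0.0106, edgeR).

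The leukocyte chains were read beside the macrophage markers, which were present in both groups. Of the 17 macrophage markers tested, *Adgre1* alone was called higher and none lower by edgeR (2 lower and 4 higher at an unadjusted p under 0.05; DESeq2 called 1 lower and 1 higher). Per 1000 TPM of the summed macrophage list, *Itgb2* measured 2.61, 7.75 and 5.08 TPM in dCas9-KRAB and 9.42, 25.0 and 3.44 TPM in dCas9-KRAB-En5, and the groups overlapped. On the same scale *Itgb7* measured 0.314, 0.812 and 0.572 against 2.05, 5.58 and 1.92 TPM, and the groups did not overlap. Per 100 TPM of the macrophage receptor gene *Csf1r*, *Itgb2* measured between 13.9 and 19.1 TPM in the controls and between 33.7 and 54.2 TPM in dCas9-KRAB-En5, and *Itgam* between 0.794 and 3.28 and between 1.92 and 9.47 TPM. The part of the macrophage transcripts in the levels of *Itgb2*, *Itgam*, *Itgal* and *Itgb7* was not tested.

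*Itgb1*, the common partner of most alpha subunits and essential for myoblast fusion, had 61.7, 30.4 and 29.4 TPM in dCas9-KRAB and 50.5, 48.5 and 9.72 TPM in dCas9-KRAB-En5. The groups overlapped and the log2 fold change was -0.56 (SE 0.51, adjusted p = 0.479, edgeR). The ratio of *Itga7* to *Itgb1* TPM was 1.51, 8.90 and 6.65 in the controls and 0.193, 0.186 and 2.84 in dCas9-KRAB-En5, where replicate 3 exceeded control replicate 1. *Itgb5*, a partner of *Itgav*, was abundant in both groups, at 25.2, 86.5 and 64.1 TPM and 71.1, 102 and 44.3 TPM, with a log2 fold change of 0.13 (SE 0.49, adjusted p = 0.877, edgeR). *Itgb3*, the other main partner of *Itgav*, had 0.287, 1.46 and 0.859 TPM against 2.16, 4.09 and 0.622 TPM (adjusted p = 0.284, edgeR). *Itgb4*, the hemidesmosome chain that pairs with *Itga6*, was low but without overlap, at 0.131, 1.00 and 0.509 TPM in dCas9-KRAB and 3.25, 5.25 and 2.13 TPM in dCas9-KRAB-En5. Its log2 fold change of 2.54 (SE 0.66) missed the threshold (adjusted p = 0.0227, edgeR) and was called with the replicate block (2.85, adjusted p = 0.00257). *Itgb6*, known as an epithelial chain, had 30, 33 and 69 counts in the controls and none in dCas9-KRAB-En5, which is at least 8.41-fold lower against a floor of 3 counts per library (adjusted p = 0.00992, edgeR). This call was lost with the replicate block (adjusted p = 0.0159) and without any of the libraries but dCas9-KRAB-En5 replicate 3, and the level of at most 0.217 TPM was low throughout. *Itgb8* had between 7 and 16 counts in the controls and at most 2 in dCas9-KRAB-En5, and did not pass the filter.

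**Figure D3:**
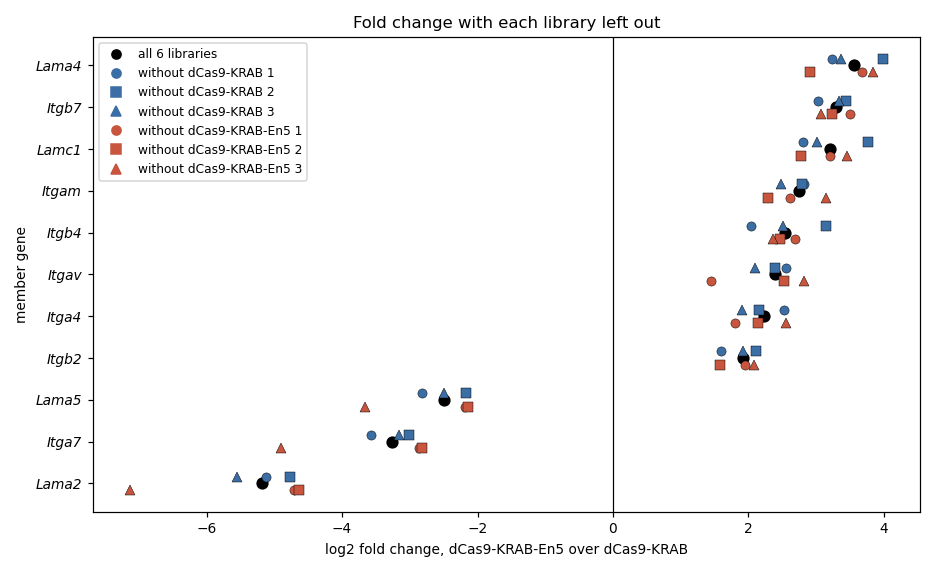
Log2 fold change of dCas9-KRAB-En5 over dCas9-KRAB on the horizontal axis for the 11 members that edgeR, edgeR with the replicate block or DESeq2 called, without *Itgb6*; black points use all 6 libraries and the other points leave out the library named. Every value kept its sign, and the red triangles, which leave out dCas9-KRAB-En5 replicate 3, lie farthest left for *Lama2*, *Itga7* and *Lama5* at -7.13, -4.90 and -3.66.

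Among the laminin alpha chains the levels crossed over. *Lama2*, the alpha chain of the muscle fibre basement membrane (ENSMUSG00000019899, chromosome 10, 26980036 to 27619758, minus strand), had 422, 919 and 262 counts in dCas9-KRAB and 4, 2 and 16 counts in dCas9-KRAB-En5, or 0.922 ± 0.563 against 0.0202 ± 0.0191 TPM (SD, n = 3). It fell by 5.19 on the log2 scale (SE 1.00, adjusted p = 0.00586, edgeR), and the call was lost without dCas9-KRAB replicate 1 or 2 or dCas9-KRAB-En5 replicate 2, with adjusted p-values up to 0.0482. *Lama4*, the chain of endothelial and interstitial laminins (ENSMUSG00000019846, chromosome 10, 38965515 to 39110188, plus strand), had 0.611, 1.74 and 0.807 TPM against 13.9, 32.6 and 3.10 TPM. It rose 11.8-fold, with a log2 fold change of 3.56 (SE 0.62, adjusted p = 0.00348, edgeR); the groups did not overlap, and the call was lost without any 1 of the dCas9-KRAB libraries, with adjusted p-values up to 0.0408. *Lama5*, the broadly expressed alpha chain, had 4.83, 15.1 and 9.19 TPM against 1.16, 1.12 and 2.15 TPM, every dCas9-KRAB-En5 library being below every control. Its log2 fold change of -2.50 (SE 0.66) missed the threshold (adjusted p = 0.0243, edgeR) and was called with the replicate block (-2.75, adjusted p = 0.00307) and without dCas9-KRAB-En5 replicate 3 (-3.66, adjusted p = 5.32e-04). *Lama5* was not called with any other library left out (adjusted p up to 0.0913, edgeR) or with the gene length offset (adjusted p = 0.0751, edgeR). *Lama1* and *Lama3*, chains of embryonic and epithelial basement membranes, had at most 18 and 20 counts and were not tested.

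The gamma chain *Lamc1*, which most laminin trimers contain, had the largest level among the laminins of dCas9-KRAB-En5 cells. *Lamc1* (ENSMUSG00000026478, chromosome 1, 153218922 to 153332786, minus strand) measured 3.30, 13.1 and 5.51 TPM in dCas9-KRAB and 89.0, 152 and 18.7 TPM in dCas9-KRAB-En5, without overlap. It rose 9.18-fold, with a log2 fold change of 3.20 (SE 0.63, adjusted p = 0.00644, edgeR), between 2.78 and 3.77 when each library was left out. The call was lost without any 1 of the dCas9-KRAB libraries or dCas9-KRAB-En5 replicate 2, with adjusted p-values up to 0.0495. The other gamma chain measured, *Lamc3*, did not exceed 0.338 TPM (adjusted p = 0.149, edgeR). The beta chains were not called: *Lamb1*, its usual partner with *Lama4*, had 1.38, 4.47 and 1.74 TPM against 2.46, 1.64 and 0.961 TPM (log2 fold change -0.73, SE 0.52, adjusted p = 0.354, edgeR). *Lamb2*, the beta chain of the neuromuscular junction, had 3.82, 13.0 and 6.36 TPM against 2.98, 3.55 and 1.90 TPM without overlap, and its log2 fold change of -1.58 (SE 0.49) did not pass (adjusted p = 0.0476, edgeR). *Lamb3*, an epithelial chain, stayed under 1 TPM in all libraries (adjusted p = 0.176, edgeR).

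The summed TPM of each family were compared as a description. The alpha integrins summed to 128, 375 and 262 TPM in dCas9-KRAB and 201, 242 and 76.2 TPM in dCas9-KRAB-En5, which overlap. The beta integrins summed to 116, 188 and 145 TPM and to 385, 603 and 154 TPM, which also overlap, through dCas9-KRAB-En5 replicate 3. Within the alpha integrins, *Itga7* held 72.9%, 72.3% and 74.6% in the controls and 4.85%, 3.72% and 36.3% in dCas9-KRAB-En5, a mean of 73.3 ± 1.22% against 14.96 ± 18.5% (SD, n = 3). The 5 leukocyte alphas held 5.18%, 3.54% and 2.83% in the controls and 24.7%, 34.2% and 11.8% in dCas9-KRAB-En5, a mean of 3.85 ± 1.21% against 23.6 ± 11.2%. *Itgb2* held 21.9%, 32.9% and 30.9% of the beta integrins against 55.0%, 60.1% and 40.6%, a mean of 28.6 ± 5.89% against 51.9 ± 10.1%. In all 3 shares the groups did not overlap, and dCas9-KRAB-En5 replicate 3 was the library of its group nearest to the controls. The share of *Itga5* among the alphas was 17.1 ± 4.24% and 36.2 ± 4.39%, while its own TPM overlapped between the groups. Among the laminin alpha chains, *Lama5* held between 75.6% and 88.3% in the controls and between 3.33% and 40.6% in dCas9-KRAB-En5, and *Lama4* between 7.75% and 9.56% and between 58.6% and 96.6%. *Lamc1* held 23.4 ± 2.50% of all laminin TPM in the controls and 76.7 ± 6.41% in dCas9-KRAB-En5. A share moves with the other members of its family, so these values give the makeup of the family and not separate changes.

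**Figure D4:**
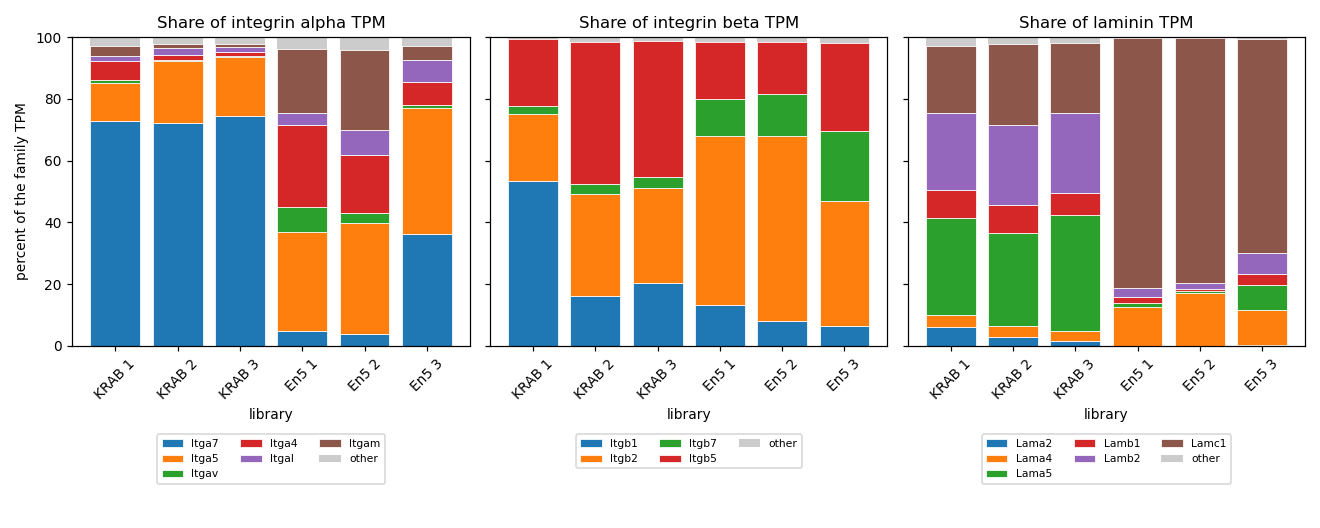
Makeup of the 3 families by library, as percent of the summed TPM of the 18 alpha integrins (left), the 8 beta integrins (middle) and the 10 laminins (right); each bar is a library, each colour a gene and grey the genes that stay under 5% in every library. *Itga7* takes over 72% of the left bars in dCas9-KRAB, and *Lamc1* 69.3% to 81.1% of the right bars in dCas9-KRAB-En5.

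Partner genes of adhesion were read from 3 lists, 54 genes of which 50 were tested. By edgeR 9 partners fell, 18.0% of those tested, and none rose (20 and 3 at an unadjusted p under 0.05; DESeq2 called 16 lower and 1 higher, the kinase *Ptk2b*). Over all genes tested 4.67% were called lower and 1.52% higher. The 9 partners include *Itgb1bp2*, *Sgca*, *Dtna* and *Sspn*, which owed their place in the test to the dCas9-KRAB libraries. No share was counted without such genes, so the share of 18.0% is a description. Without dCas9-KRAB-En5 replicate 3, 17 partners were called lower and 2 higher, where 14.0% and 11.7% of all genes were, and without dCas9-KRAB replicate 1 or 2, 5 were called lower, where 1.43% and 2.02% were. The replicate block added 4 partners to the lower calls, *Parva*, *Src*, *Col4a1* and *Icam2* (adjusted p = 0.0017, 0.00136, 0.00847 and 0.00751, edgeR). The median log2 fold change was -0.17 over the adaptors and kinases, -2.40 over the basement membrane partners and -1.72 over the counter-receptors and ligands. Of the 25 adaptors and kinases tested, 1 fell, *Itgb1bp2*, the muscle protein melusin that binds the tail of *Itgb1*. It had 20.01, 23.6 and 23.1 TPM in the controls and 0, 0.0656 and 0 TPM in dCas9-KRAB-En5, at least 281-fold lower against the floor (adjusted p = 2.88e-05, edgeR). Of the linkers between integrin tails and actin, *Parva*, a parvin, had 2.98, 7.17 and 3.88 TPM against 0.479, 0.285 and 0.723 TPM without overlap, and its log2 fold change of -3.03 (SE 0.68) missed the threshold without the block (adjusted p = 0.0121, edgeR). *Tln2*, a talin of muscle, had an adjusted p of 0.406 and a log2 fold change of 0.90 (SE 0.71), which came to -0.37 with the gene length offset, and *Fermt3*, the kindlin of blood cells, lay at 18.1, 88.3 and 72.5 TPM against 50.5, 89.7 and 41.4 TPM (adjusted p = 0.904, edgeR). Of the 14 basement membrane partners, 5 fell: the sarcoglycan *Sgca* was at least 414-fold and the dystrobrevin *Dtna* at least 102-fold lower, *Bcam*, a receptor for the *Lama5* chain, fell by 5.96, sarcospan (*Sspn*) by 4.74 and perlecan (*Hspg2*) by 2.86 on the log2 scale. *Itgb1bp2*, *Sgca* and *Dtna* passed the filter on low counts through the dCas9-KRAB libraries alone, so a difference was bound to appear in them and their calls are a description. *Sspn* was over the cutoff of this filter in 3 dCas9-KRAB and 2 dCas9-KRAB-En5 libraries. It too owed its place in the test to the dCas9-KRAB libraries. The laminin receptor dystroglycan (*Dag1*) had 7.33, 23.9 and 10.53 TPM against 15.7, 33.9 and 3.93 TPM and a log2 fold change of -0.02 (SE 0.55, adjusted p = 0.982, edgeR). Among the counter-receptors and ligands, 3 fell: *F11r* (log2 fold change -2.97), *Vcam1*, the ligand of the *Itga4* integrins (-3.46), and *Fbln1* (-3.57), with adjusted p-values from 0.00125 to 0.00496. With the gene length offset *Hspg2* and *Vcam1* were not called (adjusted p = 0.0228 and 0.0117, edgeR). *Icam1*, the ligand of the *Itgb2* integrins, overlapped between the groups (adjusted p = 0.937, edgeR).

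**Figure D5:**
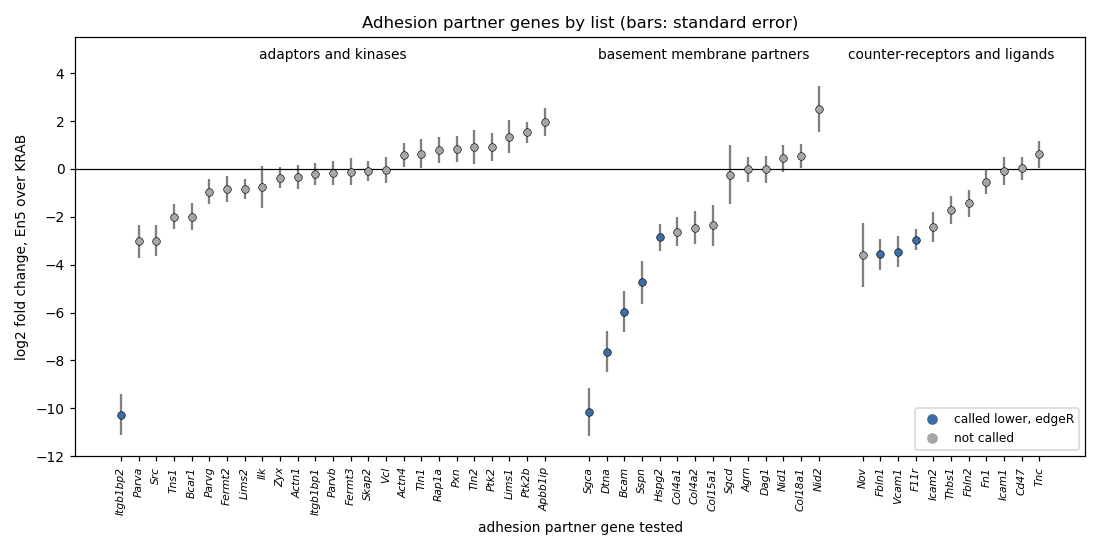
Log2 fold change of dCas9-KRAB-En5 over dCas9-KRAB for the partner genes tested, by list, with the standard error as bars; blue points are called lower by edgeR and grey points are not called. *Itgb1bp2*, *Sgca* and *Dtna* had at most 3 counts in each dCas9-KRAB-En5 library, so their plotted values depend on the prior count; no partner is called higher.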

How the data were processed

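PolyA RNA of 6 C2C12 libraries was analysed, grouped and numbered by the sample labels. The authors aligned reads with HISAT2 2.2.1 to GRCm38, used featureCounts for gene counts, and deposited the counts and TPM of each library. The annotation release and strand setting are not given in the sources used here, so reads of overlapping genes on opposite strands cannot be told apart. A gene absent from a file was taken as 0. Symbols came from GENCODE M21 (23186 of 23231 IDs matched). The exon lengths of the tested members lay within 1.6% of those implied by counts and TPM.

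Counts were compared as dCas9-KRAB-En5 over dCas9-KRAB across all genes with edgeR 4.0.16 in R 4.3.3 (TMM, filterByExpr with minimum count 10 and minimum total count 15, glmQLFit and glmQLFTest, Benjamini-Hochberg adjustment), with calls at adjusted p ≤ 0.01 and log2 fold change ≥ 1 in size. Each standard error (SE) is the log2 fold change over the root of its F value. The test was checked on simulated counts, where at the spread of these libraries planted changes about as large as that of *Itgb2* were all missed. A gene that missed the threshold may therefore still differ. Alternatives were DESeq2 1.42.0, limma 3.58.1 with TPM (log2 after adding 1 or 0.1), other normalizations, no filter, a replicate block, each library left out and an adjusted p ≤ 0.05. Same-numbered libraries deviated together from their group means (correlations across genes of 0.262, 0.214 and 0.29, against -0.34 to -0.051 for different numbers), so the block is given where it changed a call. Deviations cancel out within a group, so positive values for the same number force negative ones among different numbers, which are no separate contrast. The labels do not say what a number marks. Folds against at most 3 counts in every library are lower bounds against 3 counts per library.

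All members are accounted for; those at a median of at least 1 TPM in a group, or called, have each library's value. From each partner list, called genes (at most 5 per direction by adjusted p) and *Itgb1bp2*, *Tln2*, *Fermt3* and *Dag1* were named; *Ptk2b*, *Icam1*, *Adgre1*, *Parva*, *Src*, *Col4a1*, *Icam2* and *Lyz2* were named after their values were seen. The members and lists were chosen with earlier results of these data known.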

Additional observations from a re-analysis of the deposited data

How the results depend on the processing

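Of 378 refits of the 27 members tested under 14 alternatives each, 315 kept their direction and their side of the threshold, 29 lost a call, 28 gained one and 6 turned sign. The sign turned for *Itga10* without dCas9-KRAB replicate 1 (-0.09), dCas9-KRAB replicate 3 (-0.10) or dCas9-KRAB-En5 replicate 1 (-0.008), for *Itga5* without dCas9-KRAB replicate 1 (-0.30), and for *Itgb5* without dCas9-KRAB replicate 1 (-0.26) or dCas9-KRAB-En5 replicate 3 (-0.04), none of them called in any fit. Among the fits with a library left out, their values were highest without dCas9-KRAB replicate 2, 0.83, 0.53 and 0.39. The 2 members called lower became 4 with DESeq2 or with no filter on low counts, 1 with DESeq2's size factors in edgeR, with limma on log2(TPM + 1) or with a gene length offset (chosen after seeing the data), and 5 at adjusted p ≤ 0.05. The 3 called higher became 8 with DESeq2, with no filter or at adjusted p ≤ 0.05, 1 with limma on either log2(TPM) scale and 6 with the replicate block, which changed no other member's call than those given in the report and called 13 partners lower. The 9 partners called lower became 16 with DESeq2, with no filter or at adjusted p ≤ 0.05 and 4 with limma on log2(TPM + 1), and the 0 called higher became 1 with DESeq2 or no filter and 2 at adjusted p ≤ 0.05. With each library left out, members called lower ranged from 0 to 4 and higher from 0 to 7, and partners called lower from 5 to 17 and higher from 0 to 2, while the percentage of all genes called ranged from 1.43% to 14.0% lower and from 0.0397% to 11.7% higher. Leaving out 1 library leaves 2 in its group, and fewer samples were tested. The share of *Itga7* among the alpha integrins in dCas9-KRAB was 77.9% in counts in place of TPM, and its share in dCas9-KRAB-En5 and those of the leukocyte alphas and *Itgb2* moved by less than 1 SD with counts. Over all genes tested, edgeR made 671 lower and 219 higher calls against 1423 and 967 with DESeq2, and the cause of these differences was not tested. The median log2 fold change of all genes tested, 0.07 in edgeR, was 0.18 with limma on log2(TPM + 0.1). The depth of dCas9-KRAB-En5, 31831093 to 40384720 counts, limits what can be said of *Itga1*, *Itga2*, *Itga8*, *Itga9*, *Itgad*, *Itgae*, *Itgb8*, *Lama1* and *Lama3*, which were not detectable or near the floor.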
